A study of Mus musculus with 12 samples.

Results

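Prox1, Foxc2, Reln, Mmrn1 and Lyve1 are genes used to recognise lymphatic endothelium, the lining of the vessels that drain fluid and immune cells from tissue. They were taken from the platform's gene symbols, which paired each with 1 probe set, so that all 5 members were measured among 24704 genes. Expression was measured in whole mouse lung on Affymetrix arrays, 12 in all, with 3 arrays in each of 4 groups. Control mice carried floxed Nfat5 (Nfat5fl/fl) and were given only miglyol, the solvent, for 5 days. Knockout mice (Nfat5(EC)-/-) were given 1 mg tamoxifen daily for 5 days, injected into the abdomen, to delete Nfat5 in endothelial cells. Males and females aged 10 to 12 weeks were used and rested for 2 to 3 weeks. Hypoxia then lasted 21 days, and the normoxic mice of both genotypes were its comparison. The labels do not name the promoter that drove the recombinase. Knockout mice alone received tamoxifen, so an effect of the drug cannot be told apart from that of the deletion.

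The design text counts 4 mice a group, and replicates were taken as separate mice. The submitters left out lungs with contaminating tissue and lungs whose expression answered hypoxia inadequately, so the hypoxic animals were partly chosen on the outcome. All values are log2 expression, on which a difference of 1 is a doubling. A gene was called changed at an adjusted p under 0.05 in limma, a linear model fitted to all genes at once.

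Lymphatic identity is set by PROX1, a homeobox transcription factor without which lymphatic endothelial cells are not specified or kept. FOXC2, a forkhead factor, is needed for lymphatic valves and for the collecting type of vessel. Collecting vessels release reelin, the secreted glycoprotein encoded by Reln, and MMRN1 (multimerin 1) is a secreted matrix protein of lymphatic endothelium and platelets. LYVE1 is the hyaluronan receptor of initial lymphatic capillaries, through which immune cells enter, and it is low in collecting vessels. None of the 5 is restricted to lymphatic cells. For example, Lyve1 is also made by a class of tissue macrophage, Prox1 by heart muscle and Mmrn1 by megakaryocytes.

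The members moved in both directions with hypoxia, which is why the bases before their annotated starts are shown. RefSeq windows on GRCm38.p6, 250 bases before the start and printed in the gene's direction, were found for 3 of the 5 members, Prox1, Reln and Mmrn1; Lyve1 and Foxc2 had no entry. The letters ACGTG and GCGTG, the core bound by hypoxia-inducible factors, and TGGAAA, the core bound by NFAT proteins including NFAT5, were searched on both strands, and matches are in capitals.
Prox1, chr1:190170828-190171077, minus strand: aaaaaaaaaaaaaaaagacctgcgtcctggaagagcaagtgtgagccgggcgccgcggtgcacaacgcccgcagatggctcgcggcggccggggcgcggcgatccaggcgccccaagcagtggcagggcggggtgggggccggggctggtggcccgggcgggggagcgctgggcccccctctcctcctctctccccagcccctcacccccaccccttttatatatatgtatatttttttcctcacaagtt
Reln, chr5:22344706-22344955, minus strand: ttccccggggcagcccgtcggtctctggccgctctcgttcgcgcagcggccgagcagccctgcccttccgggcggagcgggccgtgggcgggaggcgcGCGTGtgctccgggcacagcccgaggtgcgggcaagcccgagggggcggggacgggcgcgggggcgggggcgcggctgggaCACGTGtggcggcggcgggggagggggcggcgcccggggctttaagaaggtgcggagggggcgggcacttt
Mmrn1, chr6:60944067-60944316, plus strand: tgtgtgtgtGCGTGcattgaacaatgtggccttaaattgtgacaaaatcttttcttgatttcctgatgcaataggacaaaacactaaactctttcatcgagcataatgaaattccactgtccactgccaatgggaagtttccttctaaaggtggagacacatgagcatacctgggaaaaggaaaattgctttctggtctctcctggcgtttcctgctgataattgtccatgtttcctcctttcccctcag
In the Reln window ACGTG stood on the plus strand of the gene 70 to 66 bases before the start and on the other strand 71 to 67 bases before it, overlapping as the palindrome CACGTG. The other hypoxia motif, GCGTG, stood 152 to 148 bases before the Reln start and 241 to 237 bases before the Mmrn1 start. No window of the 3 genes held TGGAAA, and neither the Prox1 window shown nor the window at its second annotated start held any of the 3 motifs. Among 32851 windows of the same length, ACGTG was found in 16.6%, CACGTG in 6.02%, GCGTG in 28.2% and TGGAAA in 18.6%. The windows also differed in composition, with G and C making up 64.8% of the Prox1, 80% of the Reln and 42.4% of the Mmrn1 bases. The Mmrn1 window ends in cag, the letters that also close introns, and whether transcription begins at this annotated start was not tested. A match is a description of the letters and not a binding site.

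In 21 days of hypoxia Prox1, Reln, Mmrn1 and Foxc2 were higher and Lyve1 was lower, averaged over both genotypes. Reln rose 2.70-fold, Mmrn1 1.93-fold, Prox1 1.93-fold and Foxc2 1.21-fold, while Lyve1 fell 2.18-fold. Prox1 in normoxia and Foxc2 throughout were below the array median of 4.55, and Reln in normoxia was near it (4.15 to 5.11). How far the folds of these 3 genes are compressed at such low signal was not tested. All 5 members were called, against 14.7% of all genes in this averaged contrast. In control lungs 4 of 5 were called (background 11.5%) and in knockout lungs 3 of 5 (background 1.14%). The averaged contrast is made of the same arrays as these, so the 3 counts are not independent. The members were chosen with earlier results of these data known, so their excess over these shares is a description and not a test. No member differed between the genotypes at the threshold.

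Prox1 in control lungs was 3.84, 4.03 and 3.65 in normoxia and 4.98, 4.77 and 4.61 in hypoxia. In knockout lungs it was 3.71, 4.16 and 3.85 in normoxia and 5.25, 4.32 and 4.98 in hypoxia. Each hypoxic array lay above all 6 normoxic arrays, the nearest being knockout hypoxia 3 at 4.32 and knockout normoxia 2 at 4.16. Prox1 rose in control lungs by 0.95 ± 0.21 (SE; adjusted p = 0.0177), and this call was lost without control hypoxia 2 (0.96, adjusted p = 0.0618) or without control normoxia 1 (0.95, adjusted p = 0.0559). It was called under 20 of 23 alternatives, with adjusted p of 0.007 to 0.578, the highest with the mean of nuclear noncoding RNAs as a covariate (1.02). In knockout lungs the difference was 0.94 ± 0.21 (adjusted p = 0.0593), which did not pass with all arrays. Without knockout hypoxia 3, the lowest hypoxic array, it was 1.21 (adjusted p = 0.0167), and 6 of 23 alternatives called it, with adjusted p of 0.0149 to 0.224. One of the 6 was the filter on low values, which Prox1 passed only through its hypoxic arrays, since all 6 normoxic arrays were below the array median of 4.55. Averaged over the genotypes Prox1 rose by 0.95 ± 0.15 (adjusted p = 0.00271), with a 95% confidence interval of 0.62 to 1.27.

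Foxc2, the other transcription factor, showed the smallest difference of the 5. Control lungs read 3.86, 3.74 and 4.01 in normoxia and 4.17, 4.07 and 4.40 in hypoxia. Knockout lungs read 3.83, 3.95 and 4.09 in normoxia and 4.17, 4.23 and 4.12 in hypoxia. Within each genotype the hypoxic arrays were above the normoxic ones, but knockout normoxia 4 at 4.09 was above control hypoxia 2 at 4.07. The difference was 0.35 ± 0.11 in control (adjusted p = 0.0596) and 0.22 ± 0.11 in knockout lungs (adjusted p = 0.448), and neither passed. Without control normoxia 4 the control difference was 0.41 (adjusted p = 0.0356), and 2 of 22 alternatives called it, with adjusted p of 0.0356 to 0.812. Averaged over genotypes Foxc2 rose by 0.28 ± 0.08 (adjusted p = 0.0307), a call that was lost on leaving out any of 8 of the 12 arrays. These were knockout hypoxia 2, 3 and 4, control hypoxia 4, knockout normoxia 1 and 2, and control normoxia 1 and 2, with values of 0.23 to 0.29 and adjusted p of 0.0528 to 0.072. Of 21 alternatives 10 called it, with adjusted p of 0.00811 to 0.664. Foxc2 was below the array median of 4.55 on all 12 arrays.

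Reln had the largest rise of the members on the log2 scale. It was 4.61, 4.15 and 4.75 in control normoxia and 5.91, 6.05 and 6.15 in control hypoxia. In knockout lungs it was 4.79, 4.65 and 5.11 in normoxia and 6.33, 5.94 and 6.30 in hypoxia. The 6 hypoxic arrays were at 5.91 or above and the 6 normoxic arrays at 5.11 or below. Reln rose by 1.53 ± 0.17 in control lungs (2.88-fold, adjusted p = 0.00158) and by 1.34 ± 0.17 in knockout lungs (2.54-fold, adjusted p = 0.00508). With the nuclear RNA covariate the control value was 0.95 and was not called (adjusted p = 0.353). Over both genotypes the rise was 1.44 ± 0.12 (adjusted p = 9.89e-05), with an interval of 1.17 to 1.70. The genotype contrasts for Reln were 0.34 ± 0.17 in normoxia and 0.16 ± 0.17 in hypoxia, and neither passed.

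The SD of Mmrn1 was 0.19 in knockout hypoxia, and the smallest of any member and group, 0.027, among the 3 control normoxic arrays. They read 7.19, 7.25 and 7.23, and the control hypoxic arrays read 8.27, 8.01 and 8.15. Knockout lungs read 7.29, 7.42 and 7.40 in normoxia and 8.57, 8.26 and 8.21 in hypoxia. Every hypoxic array was at 8.01 or above and every normoxic array at 7.42 or below. Mmrn1 rose by 0.92 ± 0.10 in control (adjusted p = 0.00169) and by 0.98 ± 0.10 in knockout lungs (adjusted p = 0.00218), 1.90-fold and 1.97-fold. The control call was lost with the nuclear RNA covariate (0.90, adjusted p = 0.308). The averaged rise was 0.95 ± 0.07 (adjusted p = 8.06e-05), with an interval of 0.79 to 1.11.

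Lyve1 went the other way. It was 11.26, 10.71 and 11.05 in control normoxia and 9.84, 9.50 and 9.47 in control hypoxia. In knockout lungs it was 10.72, 10.62 and 10.80 in normoxia and 10.01, 9.80 and 9.78 in hypoxia. All 6 hypoxic arrays, at 10.01 or below, were under all 6 normoxic arrays, at 10.62 or above. Lyve1 fell by 1.40 on the log2 scale in control lungs (SE 0.14, 2.64-fold, adjusted p = 0.00111) and by 0.85 in knockout lungs (SE 0.14, 1.80-fold, adjusted p = 0.018). With the nuclear RNA covariate the control value was -1.62 and was not called (adjusted p = 0.175). The knockout call was lost without knockout hypoxia 3 (-0.82) or 4 (-0.81) and without knockout normoxia 1 (-0.84), 2 (-0.90) or 4 (-0.81), with adjusted p of 0.0573 to 0.089. Of 23 alternatives 16 called it, with adjusted p of 0.00453 to 0.114. Averaged over genotypes the fall was 1.13 on the log2 scale (interval -1.35 to -0.90, adjusted p = 0.000159).

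**Figure D1:**
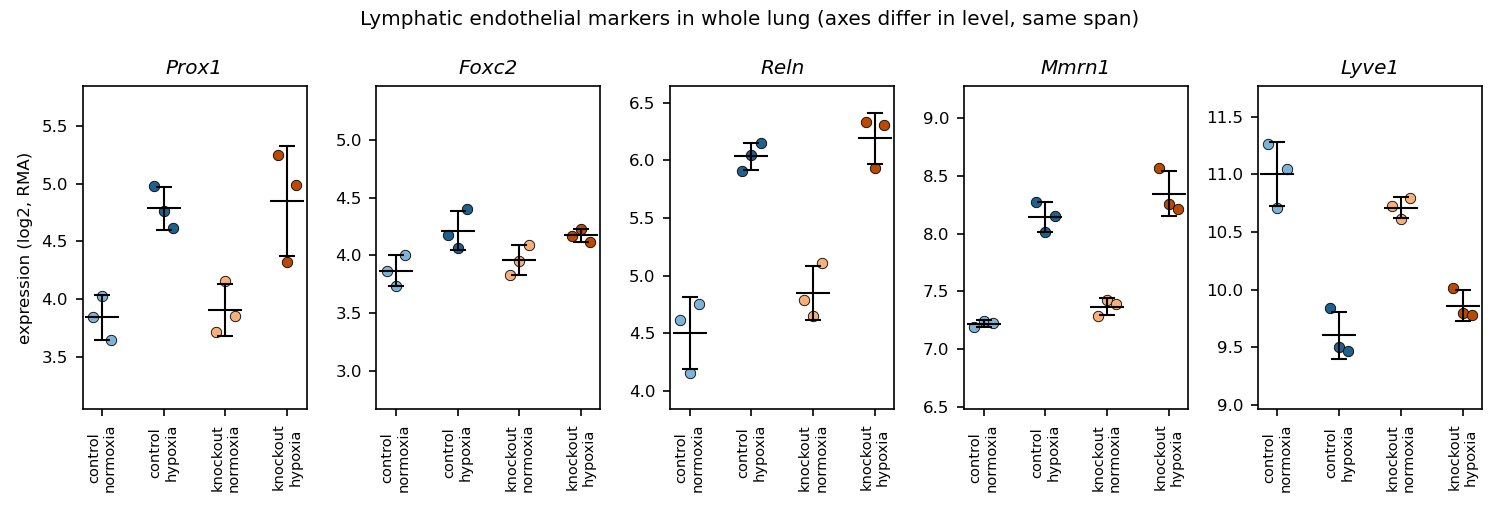
Log2 expression (RMA) of each member on the 12 arrays; every dot is 1 array, the long bar is the mean of 3 arrays and the short bars mark 1 SD. Panels share a span but not a level: Prox1, Reln and Mmrn1 are higher on every hypoxic than on every normoxic array, Lyve1 is lower, and the Foxc2 arrays of different genotypes overlap (4.09 in normoxia, 4.07 in hypoxia).

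Within each genotype the hypoxic and normoxic arrays of all 5 members were apart, whereas 27.7% of all genes were apart in control and 19.8% in knockout lungs. The exact two-sided permutation p was 0.1 for each member and genotype, the smallest that 3 arrays against 3 allow. For 4 of 5 members, all but Foxc2, the 6 hypoxic arrays were apart from the 6 normoxic arrays, as for 6.19% of all genes. With arrays regrouped within genotypes the exact p of the averaged difference was 0.005 for each of the 5, the smallest that 400 regroupings allow. The members' median difference over both genotypes was 0.95, beside 0.007 for all genes. As the members were chosen with earlier results known, these comparisons with all genes are a description.

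Because Lyve1 and the others are read on the same array, the gap between them was also taken array by array. Lyve1 minus Mmrn1 was 3.19 to 4.07 on the normoxic arrays and 1.32 to 1.56 on the hypoxic arrays, an averaged change of -2.08. The changes were -2.56 for Lyve1 minus Reln and -2.07 for Lyve1 minus Prox1. Since Lyve1 and the other 3 genes were already apart in opposite directions, the gaps had to separate as well and are a description. The gap is a within-array quantity, does not compare the levels of the genes, and any scaling of a whole array leaves it as it is.

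With group means taken off, the correlations of the 10 pairs of members over the 12 arrays ran from -0.37 (Prox1 and Foxc2) to 0.60 (Prox1 and Mmrn1). Reln and Mmrn1, both raised by hypoxia, had a within-group r of 0.056. Both genes of a pair were read on the same arrays, with the same RNA and normalization, and these values are a description.

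In the genotype contrasts limma called 0 of 5 members in normoxia, 0 of 5 in hypoxia, 0 of 5 averaged over oxygen states and 0 of 5 in the interaction, which is the hypoxia difference in knockout minus that in control. The same contrasts called 0.00405%, 0%, 0% and 0.00405% of all genes. At an unadjusted p under 0.05 there were 0, 0, 1 and 1 members, where 7.26%, 5.1%, 4.26% and 8.25% of all genes were past it. The first of those was Mmrn1, which averaged over oxygen states was 0.17 ± 0.07 higher in knockout lungs (interval 0.01 to 0.34, unadjusted p = 0.0357, adjusted p = 1, exact permutation p = 0.02). In normoxia its 3 knockout arrays lay above its 3 control arrays, making Mmrn1 the only 1 of 5 members whose genotypes were apart there (11.7% of all genes), while none was apart in hypoxia (9.74% of all genes).

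The second was Lyve1, whose interaction was 0.55 ± 0.20 (interval 0.11 to 1.00, unadjusted p = 0.0189, adjusted p = 0.574). Its knockout minus control difference was -0.29 ± 0.14 in normoxia and 0.26 ± 0.14 in hypoxia. In each oxygen state the genotypes overlapped, so the smaller fall in knockout lungs failed the correction and is reported as such. The other interactions were -0.002 for Prox1 (interval -0.65 to 0.65), -0.18 for Reln (-0.71 to 0.34), 0.06 for Mmrn1 (-0.27 to 0.38) and -0.13 for Foxc2 (-0.46 to 0.20). With intervals this wide, a p that missed the threshold does not show equal responses. Over both oxygen states knockout minus control was 0.07 for Prox1, -0.02 for Lyve1, 0.25 for Reln and 0.02 for Foxc2.

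Nfat5 itself, the deleted gene, was 9.11 ± 0.25 in control and 8.67 ± 0.11 in knockout lungs in normoxia (mean ± SD, n = 3). In hypoxia it was 8.43 ± 0.24 and 8.34 ± 0.15. The knockout arrays were below the control arrays in normoxia only, and the averaged difference of -0.26 ± 0.10 did not pass (adjusted p = 1). Cells other than endothelium keep the gene, and the position of the probes against the deleted exons is unknown here, so whole-lung Nfat5 checks the genotype labels weakly.

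Vegfc and Vegfd, which encode ligands that drive lymphatic growth, also rose. VEGF-C and VEGF-D are the growth factors that act on VEGFR3, the receptor encoded by Flt4. Vegfc was 7.02, 6.57 and 7.06 in control normoxia and 7.77, 7.67 and 7.98 in control hypoxia. In knockout lungs it was 6.77, 6.61 and 6.55 in normoxia and 7.75, 7.45 and 7.55 in hypoxia, again with no overlap between oxygen states. Vegfc rose by 0.92 in control (adjusted p = 0.0053) and by 0.94 in knockout lungs (adjusted p = 0.00974). Vegfd, which is abundant in lung mesenchyme, rose by 0.65 ± 0.07 over both genotypes (adjusted p = 0.000532). Flt4 rose by 0.56 in control lungs (adjusted p = 0.0156), and its difference of 0.28 ± 0.12 in knockout lungs did not pass (adjusted p = 0.368). Of the 16 lymphangiogenic ligands and signalling genes listed, 3 rose and 3 fell over both genotypes, with a median of 0.07. In this contrast 14.7% of all genes were called. The third riser was Svep1, a matrix protein that supports TIE signalling (0.53, named after its values were seen). Those that fell were Tek, the angiopoietin receptor TIE2 (-0.49), Kdr, the receptor VEGFR2 (-0.50), and Calcrl, the adrenomedullin receptor (-0.51, named after its values were seen).

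Other lymphatic endothelial genes were a larger list. Of 19 measured, 4 rose and 2 fell over both genotypes (14.7% of all genes called), with 13 not called and a median of 0.17. The lymphatic chemokine genes Ccl21a, Ccl21b and Ccl21c were not matched to a probe set. Stab2, a scavenger receptor that like LYVE1 binds hyaluronan, rose by 0.82 ± 0.07 (adjusted p = 0.000109) and Fxyd6, a regulator of the sodium pump, by 0.74 ± 0.10 (adjusted p = 0.00132). Flt4 and Nrp2, a co-receptor of VEGF-C named after its values were seen, rose by 0.42 and 0.27. Tspan18, a tetraspanin, fell by 0.45 and Ackr4, the receptor that clears CCL21, by 0.85 on the log2 scale. Pdpn, which encodes podoplanin and is also abundant in alveolar type 1 cells, was 0.14 ± 0.06 higher and did not pass (adjusted p = 0.108). In control lungs the list had 5 rises and 1 fall (all genes 11.5%), and in knockout lungs 2 rises and 1 fall (1.14%).

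**Figure D2:**
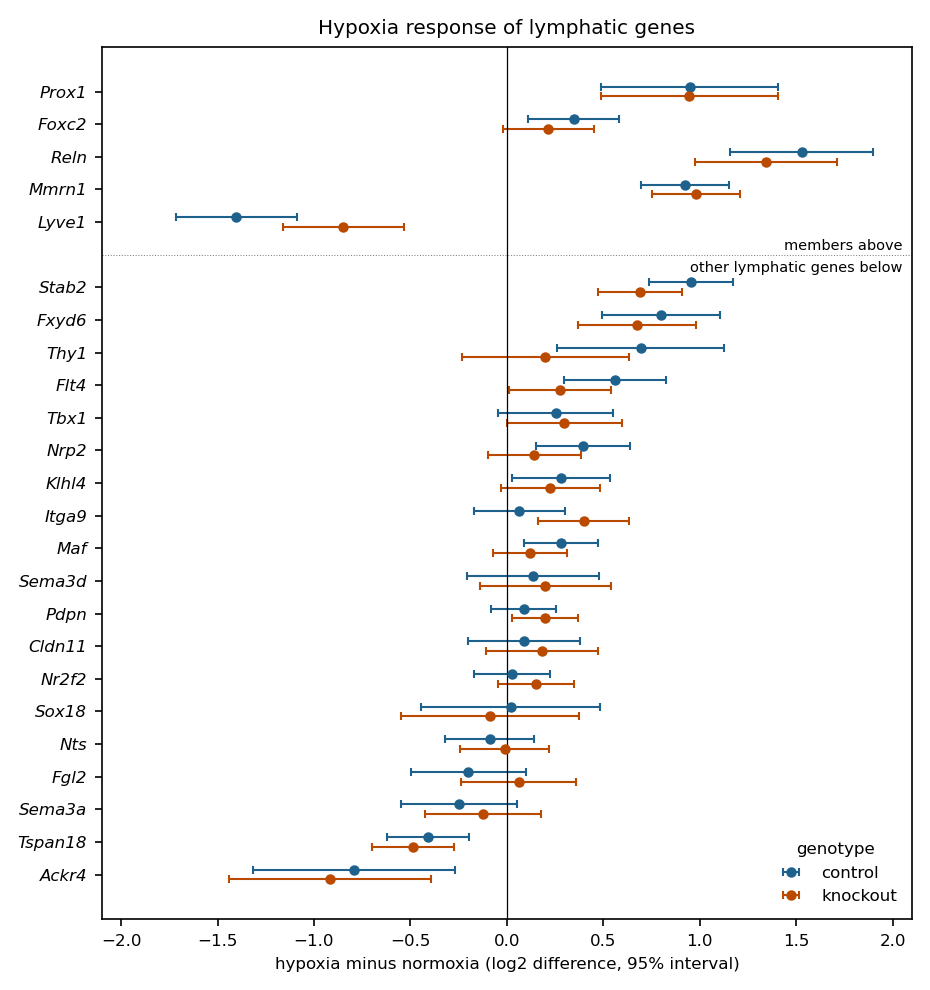
Hypoxia minus normoxia on the log2 scale, in control (blue) and knockout (orange) lungs, for the 5 members above the dotted line and the 19 other lymphatic genes below it. Points are limma estimates and bars 95% confidence intervals; Reln lies farthest right (1.53 and 1.34), Lyve1 farthest left among the members (-1.40 and -0.85), and most other lymphatic genes lie between -0.5 and 0.5.

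Valve genes, the setting in which FOXC2 works, were split. Of 15 measured, 3 rose and 3 fell over both genotypes (14.7% of all genes were called), with a median of 0.09. Fn1, the fibronectin gene whose protein forms the valve leaflet core, rose by 0.77, as did 2 genes named after their values were seen, the fibronectin receptor subunit Itga5 (0.38) and the connexin Gja1 (0.30). Efnb2, the ligand ephrin-B2, fell by 0.93, Rasa1, a RAS inhibitor, by 0.76 and the arterial connexin Gja5 by 0.49. Gata2, a factor upstream of valve formation, was -0.35 ± 0.14 (adjusted p = 0.12). Many of these genes are also made by arteries and mesenchyme.

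Genes through which reelin acts were followed as well. Of 11 genes of the reelin pathway limma called 0 higher and 2 lower over both genotypes. Limma called 7.27% of all genes higher and 7.4% lower in that contrast. At an unadjusted p under 0.05, 3 of the 11 were higher and 2 lower, where 28.4% of all genes passed. The receptors Vldlr and Lrp8 were at 0.13 ± 0.06 (adjusted p = 0.219) and -0.02 ± 0.08 (adjusted p = 0.889). Pafah1b1, a dynein regulator, fell by 0.41 and the adaptor Crk by 0.27 on the log2 scale. The family of Mmrn1 had 2 rises among 4 relatives over both genotypes (14.7% of all genes called). In control lungs there were 2 (11.5%) and in knockout lungs 0 (1.14%), and 0 of 4 is near that share. In knockout lungs 1 was higher at an unadjusted p under 0.05, where 12.6% of all genes passed. Over both, Mmrn2, the endothelial multimerin, rose by 0.65 ± 0.10 (adjusted p = 0.00277; 0.52 in knockout lungs, adjusted p = 0.13) and Emilin1, an elastic fibre protein needed for lymphatic anchoring, by 0.64 ± 0.12 (adjusted p = 0.00741). Emilin2 (-0.11) and Emilin3 (0.08) were not called.

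Of 11 hyaluronan synthases, hyaluronidases and receptors, the gene family beside Lyve1, 1 rose and 0 fell in limma over both genotypes, where 3 were higher and 2 lower at an unadjusted p under 0.05. Limma called 14.7% of all genes in that contrast, and 28.4% passed without adjustment. The riser was Stab2, so 2 receptors of the same ligand, Lyve1 and Stab2, moved oppositely. Cd44, the broadly expressed hyaluronan receptor, was at 0.04 ± 0.06 (adjusted p = 0.731).

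Lyve1 is also a marker of interstitial macrophages, whose genes were followed in the same contrasts. Of 17 such genes 6 rose and 0 fell over both genotypes, with a median of 0.08. At an unadjusted p under 0.05, 7 were higher and 1 was lower, where 28.4% of all genes passed. Limma called 7.27% of all genes higher and 7.4% lower, so 0 of 17 lower is near that share. In control lungs 5 rose (5.36% of all genes). In knockout lungs limma called 0 of 17 (1.14% of all genes). There 5 were higher and 1 lower at an unadjusted p under 0.05 (12.6% of all genes passed). Mrc1, the mannose receptor, was 8.73, 8.61 and 8.58 in control normoxia and 9.29, 9.25 and 9.06 in control hypoxia. In knockout lungs Mrc1 was 8.89, 8.93 and 8.66 in normoxia and 9.17, 9.23 and 9.17 in hypoxia. Every hypoxic array was above every normoxic one, opposite to Lyve1, and Mrc1 rose by 0.46 ± 0.07 (adjusted p = 0.00191), with 0.56 in control (adjusted p = 0.00718) and 0.37 in knockout lungs (adjusted p = 0.103). The complement genes C1qa, C1qb and C1qc rose by 0.54, 0.66 and 0.74. Cd163 (0.03, adjusted p = 0.875) and Folr2 (0.32, adjusted p = 0.172), markers of the same resident macrophages, were not called over both genotypes. Folr2 rose in control lungs by 0.73 (adjusted p = 0.0406) and was at -0.09 in knockout lungs (adjusted p = 0.926). The summed level of the 17 genes, as log2, was 13.53 to 13.65 in control normoxia, 13.65 to 13.73 in control hypoxia, 13.54 to 13.56 in knockout normoxia and 13.67 to 13.74 in knockout hypoxia. Lyve1 minus Mrc1 changed by -1.59 within arrays.

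Genes shared by all endothelium were mostly not higher. Of 15 pan-endothelial genes 1 rose and 5 fell over both genotypes (14.7% of all genes were called), with a median of -0.16. Pecam1 and Cdh5, which encode the junction proteins that define endothelium, were at -0.05 ± 0.06 (adjusted p = 0.641) and -0.16 ± 0.07 (adjusted p = 0.142). Emcn, the sialomucin endomucin, rose by 0.66 and Eng, the co-receptor endoglin, fell by 0.61 on the log2 scale. Among capillary genes, 5 of 9 aerocyte and 7 of 10 general capillary genes fell and limma called 0 higher. At an unadjusted p under 0.05, 0 and 1 were higher, where 28.4% of all genes passed in either direction. Relative to each array's mean of the pan-endothelial genes, Reln changed by 1.57, Mmrn1 by 1.09, Prox1 by 1.08, Foxc2 by 0.41 and Lyve1 by -0.99. Taking off this mean raises the median difference of all genes to 0.14, so these values are read against that shift. In whole lung, fewer cells of a type and less RNA per cell cannot be told apart. Lyve1 fell as these capillary genes did, and which cells carried its signal was not tested.

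**Figure D3:**
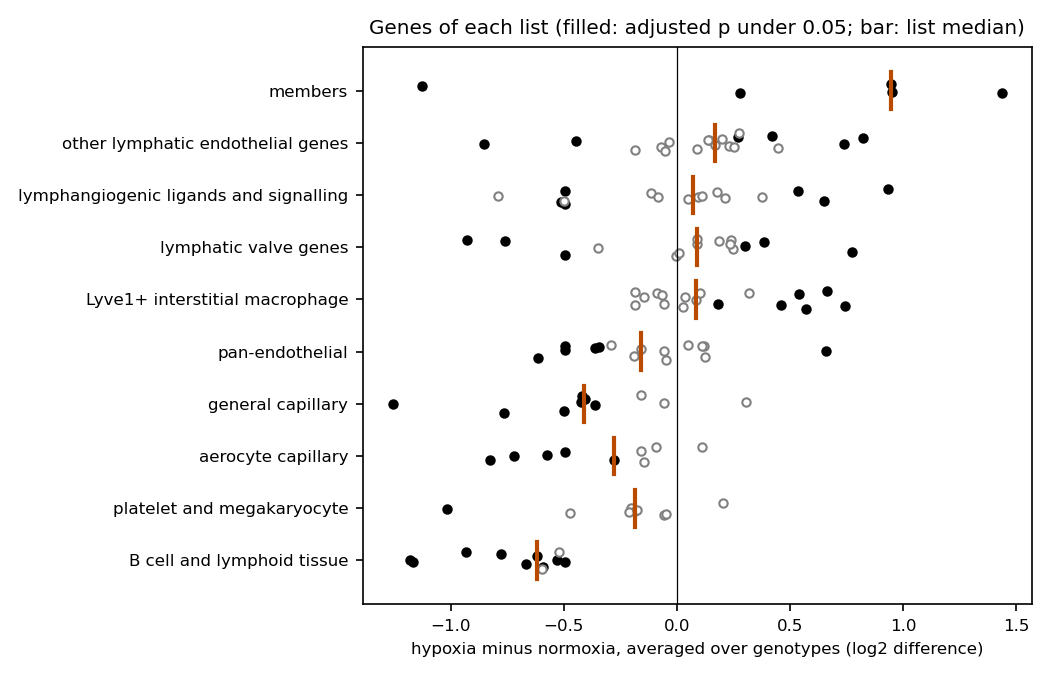
Hypoxia minus normoxia averaged over genotypes (log2) for every measured gene of 10 lists; each circle is a gene, filled where limma called it, and the bar is the list's median. Of the members Foxc2 (0.28) is nearest to 0 and their median is 0.95, the median of the other lymphatic list is 0.17, and those of the capillary and B cell lists lie left of 0.

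Genes of other cells that can hold the members were followed in the same contrast. Platelet and megakaryocyte genes, a second source of Mmrn1, had 0 rises and 1 fall among 9 in limma (Ppbp, a platelet chemokine, -1.02). Limma called 14.7% of all genes, so 1 of 9 is no higher share. At an unadjusted p under 0.05 the 9 genes had 0 rises and 2 falls, where 28.4% of all genes passed. Their summed level as log2 was 9.45 to 10.62 in normoxic and 8.90 to 10.01 in hypoxic arrays, which overlap. B cell and lymphoid genes, which would come with lymphoid tissue and its lymphatic vessels, fell for 9 of 11 with a median of -0.62. Their summed level was 10.51 to 10.70 and 10.41 to 10.77 in normoxic and 9.68 to 10.33 and 9.51 to 10.29 in hypoxic control and knockout arrays. Their part in the members' changes was not tested. On these arrays no gene reads 0, since the lowest value of any probe set was 2.41.

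Marker genes of other tissues stood apart on a few arrays, and the source of their RNA was not tested. Ucp1, the brown fat uncoupler, read 9.31 on the array knockout normoxia 2, 7.66 on control hypoxia 1 and at most 4.28 elsewhere. Nppa, which marks atrial heart muscle, read 11.94 on knockout normoxia 2, 9.41 on knockout normoxia 4 and at most 8.44 elsewhere. Knockout normoxia 2 also had the highest normoxic Prox1 value, 4.16, and the summed cardiac list, as log2, was 10.96 to 13.32 in knockout normoxia against 10.32 to 10.84 in knockout hypoxia, 10.95 to 11.66 in control normoxia and 10.93 to 11.07 in control hypoxia. Of the 10 cardiac genes limma called 0 changed in knockout lungs. There 9 were lower with hypoxia at an unadjusted p under 0.05 (12.6% of all genes passed). Over both genotypes 0 of the 10 rose and 2 fell, with 7 lower at an unadjusted p under 0.05 (28.4% of all genes). Those called were Nppa (-1.89, adjusted p = 0.0265) and Myl7 (-0.94, adjusted p = 0.0314). The 8 brown fat genes summed to 7.58 to 10.73 in knockout normoxia and 7.58 to 9.15 in control hypoxia, against 7.26 to 7.67 in control normoxia and 7.34 to 7.56 in knockout hypoxia. With all arrays and no covariate limma called 11.5% of all genes in control, 1.14% in knockout and 14.7% over both genotypes. Without both arrays that were high in Ucp1, 4 members were called in control, 2 in knockout and 4 over both genotypes. The calls lost were Lyve1 in knockout lungs (-0.90, adjusted p = 0.0582) and Foxc2 over both genotypes (0.29, adjusted p = 0.0772). Prox1 was then 1.07 in knockout lungs (adjusted p = 0.125). Among the remaining lists, over both genotypes 0 rose and 1 fell of 8 thymocyte, 1 rose and 1 fell of 7 mesothelial, and 0 rose and 1 fell of 7 epithelial genes. Of 9 housekeeping and 3 Y-linked genes limma called 0, and 0 passed at an unadjusted p under 0.05 (28.4% of all genes). The mice were of both sexes. The Y-linked mean was 5.31 ± 1.98 and 5.25 ± 1.98 in control and knockout normoxia, and 3.89 ± 1.26 and 3.87 ± 1.30 in control and knockout hypoxia. By array it was 3.04, 6.69 and 6.18 in control normoxia and 3.25, 3.08 and 5.34 in control hypoxia. In knockout lungs it was 2.98, 6.66 and 6.12 in normoxia and 5.36, 2.99 and 3.26 in hypoxia. High values were more frequent in normoxia, so by this measure sex was not balanced between oxygen states. With the Y-linked mean as a covariate 4, 3 and 5 members were called in control, in knockout and over both genotypes. The shares of all genes called with this covariate, and without the Ucp1 arrays, are not given here.

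RNAs retained in the nucleus moved with hypoxia too. Averaged over 10 such noncoding RNAs, the level was 6.75 ± 0.20 in control normoxia and 6.10 ± 0.14 in control hypoxia, and 6.49 ± 0.23 and 6.27 ± 0.20 in knockout lungs (SD, n = 3). Of the 10, 5 fell over both genotypes (14.7% of all genes called), Neat1 by 1.25 and Malat1 by 0.75 on the log2 scale. In control lungs 5 fell (11.5% of all genes called). In knockout lungs limma called 0 (1.14% of all genes), with 2 lower at an unadjusted p under 0.05 (12.6% of all genes). With this mean as a covariate, 0 of 5 members were called in control lungs, 3 in knockout lungs and 3 over both genotypes, where 2, 124 and 58 genes were called in all. The control values were then 1.02 for Prox1, 0.95 for Reln, 0.90 for Mmrn1 and -1.62 for Lyve1, so that only Reln's estimate moved by over 1.5 times. The part of RNA quality in the members' changes was not tested.

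**Figure D4:**
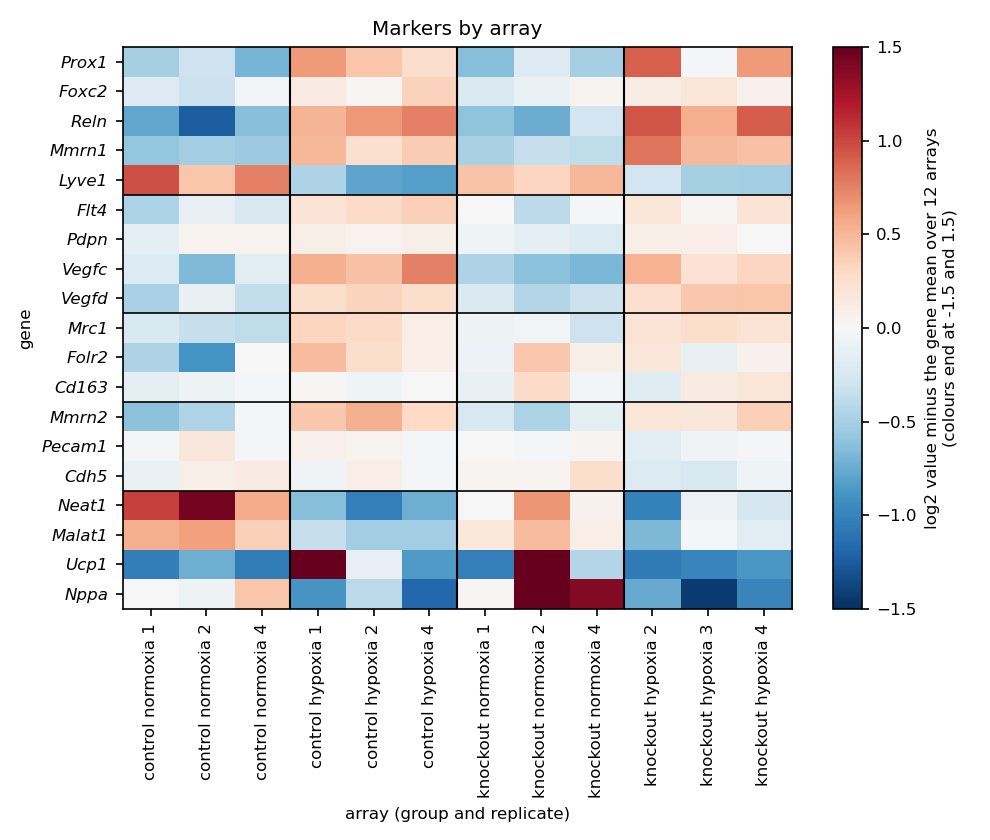
Log2 value of each gene on each array minus that gene's mean over the 12 arrays, from blue (lower) to red (higher), with colours ending at -1.5 and 1.5. Prox1, Reln, Mmrn1, Vegfc, Vegfd and Mrc1 are mostly red on the hypoxic arrays and Lyve1, Neat1 and Malat1 mostly blue; Ucp1 stands out on knockout normoxia 2 (9.31) and control hypoxia 1 (7.66).

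Placeholder symbols (such as Gm, Rik and LOC) were left out when the genes most like each member were sought. The genes whose values were most like each member's over the 12 arrays were found by Pearson's r among the rest. For Prox1 these were Fam110a (0.943), Mfap5 (0.927) and Mab21l4 (0.925), and for Reln Plod1 (0.984), Hey2 (0.977) and Pmepa1 (0.976). For Mmrn1 they were Il33 (0.962), Pgpep1 (0.961) and Lap3 (0.955), and for Lyve1 Tm4sf1 (0.960), Pih1d2 (0.959) and Brd8 (0.950). For Foxc2 they were Maf (0.921), a lymphatic transcription factor of the list above, Fam181b (0.899) and Ubap2 (0.890). Among the genes searched, none was among the closest 3 of more than 1 member. All 15 values include the difference between hypoxia and normoxia, and with group means taken off they ran from 0.38 for Il33 with Mmrn1 to 0.89 for Hey2 with Reln.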

How the data were processed

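Per the submitters' processing notes, the authors made the values with RMA, which corrects background, brings arrays to 1 distribution and summarises probes; no version, probe annotation or genome build is named in the labels or files. The authors deposited log2 values for 25428 probe sets, from 2.41 to 13.68. One symbol was paired with 24705 of them and none with 723. Where a symbol had several, the probe set with the highest mean was kept, giving 24704 genes with no filter on low values. RMA removes any change in total RNA, and the number of arrays limits the precision.

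Here limma 3.58.1 in R 4.3.3 fitted 4 group means to the 12 arrays (8 residual and 3.61 prior degrees of freedom), with 7 contrasts and two-sided p-values adjusted by Benjamini-Hochberg over all genes within a contrast. Every adjusted p and SE comes from it. The script was tested on simulated data. The members and the 20 other gene lists were chosen with earlier results of these data known. The text names the members, up to 4 genes with the smallest averaged adjusted p from each list, and 20 genes of stated interest. It also names the 3 genes most correlated with each member, placeholder symbols left out. Others are marked. Other settings tried were moderation, array weights, the replicate number as a block, filtering, scaling, covariates, averaging probe sets and leaving out arrays.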

Additional observations from a re-analysis of the deposited data

How the results depend on the processing

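The direction of each called member was kept under all alternatives. Not all of these could move an estimate. Within 1 genotype, leaving out an array of the other genotype changed only the SE and the adjusted p. Averaging the probe sets of a symbol left each member's values as they were, since each had 1 probe set. Reln and Mmrn1 were called in knockout lungs under all 23 alternatives, and Lyve1, Reln and Mmrn1 over both genotypes under all 22, with averaged values of 1.05 to 1.57, 0.90 to 1.09 and -1.27 to -0.99 for Reln, Mmrn1 and Lyve1. The number of members called moved past 1.5 times only with the nuclear RNA covariate, to 0 in control and 3 over both genotypes. Counts over all genes ran from 2 to 3920 in control, 40 to 1042 in knockout and 58 to 5173 over both genotypes. Scaling to pan-endothelial genes shifted the median of all genes by 0.10 in control, 0.18 in knockout and 0.14 over both, where 4536 of 5173 calls were then higher, against 1795 of 3622.

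Of 783 values for 35 member results, 34 changed sign, none of a called result. Prox1's interaction became 0.10 with array weights, 0.22 without both arrays high in Ucp1, 0.084 scaled to pan-endothelial and 0.010 to housekeeping genes, and ran from -0.20 to 0.26 with 1 array left out. Lyve1's averaged genotype difference became 0.066 without both Ucp1 arrays and 0.054 scaled to pan-endothelial genes, and ran from -0.091 to 0.048 with 1 array left out. Foxc2's became -0.013 with array weights, and ran from -0.013 to 0.070. In hypoxia Foxc2's difference was 0.072 scaled to pan-endothelial genes, and ran from -0.11 to 0.052. Prox1's ran from -0.057 to 0.16 in normoxia (-0.057 without both Ucp1 arrays), -0.13 to 0.33 in hypoxia and -0.033 to 0.20 averaged. Mmrn1's interaction ran from -0.054 to 0.12, and Reln's became 0.20 with the nuclear covariate. The cause was not tested.

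Replicate numbers share only a number: the 15 same-numbered pairs correlated from -0.25 to 0.28 (median 0.021, 4 over 0.1), and 2 of 12 arrays correlated best with their own number. With the replicate block 4, 3 and 4 members were called in control, knockout and over both genotypes, and 2058, 40 and 2680 genes. Under the replicate block Prox1 in knockout lungs was 1.21 (adjusted p = 0.0277), Lyve1 -0.73 (adjusted p = 0.114) and Foxc2 over both genotypes 0.25 (adjusted p = 0.067). Prox1's interaction was 0.26, and the averaged genotype differences of Lyve1 and Foxc2 were 0.042 and -0.0054. The low-value filter left out Foxc2.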
